A study of Mus musculus with 16 samples.

Results

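Nonclustered protocadherins are single-gene members of the cadherin superfamily, and 8 of them (*Pcdh1*, *Pcdh7*, *Pcdh8*, *Pcdh9*, *Pcdh10*, *Pcdh15*, *Pcdh17* and *Pcdh20*) were followed across the cell classes of the mouse dentate gyrus (DG) and between WT and V321L mice. They were taken by gene symbol from the 32285 genes of the RNA tables, and all 8 were present. The list was drawn up with results of these libraries already known, and *Pcdh8* was chosen on measured values. Those were a larger share of granule cells (GCs) with *Pcdh8* RNA in V321L mice and the enrichment of *Pcdh8* in a small *Penk*-rich GC cluster, so its difference between genotypes in GCs and between GCs with and without *Penk* or *Sorcs3* RNA is described without a p-value. Which values put the other 7 genes on the list is not recorded. Their p-values come from fits over all genes and are not independent support for the choice of members.

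Nuclei came from frozen, microdissected DG of 4 WT mice (labelled VV) and 4 mice homozygous for V321L (labelled LL), with 2 females and 2 males of each genotype, numbered F1, F2, M1 and M2. V321L replaces a valine by a leucine in the membrane-spanning segment of neuregulin 1 (*Nrg1*), a ligand whose intracellular part can be released and enter the nucleus. The mice carry the change in all cells, and counts per gene cannot check it. The ages and strain of these mice are not given in the sources used here, and no treatment is named. RNA and accessible chromatin were read from the same nuclei with the 10x Multiome kit.

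Total RNA UMIs (unique molecular identifiers, which count captured RNA molecules) numbered 4326426 to 14624265 per WT library and 15505354 to 23582057 per V321L library. After filtering, 1776 to 3600 nuclei per WT mouse and 1445 to 1973 per V321L mouse remained, and between 30 and 65 of the barcodes in a library also occurred in another. Nuclei were clustered and clusters were named from marker genes, which gave 10694 GCs. Median UMIs per GC were 1034.5 to 1919 in WT and 3128.5 to 4659 in V321L mice, and the median mitochondrial share of all nuclei was 0.0695% to 0.128% and 0.389% to 1.17%. Genotype therefore moved with depth and with mitochondrial share in every library. Levels are given in CPM, the UMIs of a gene scaled so that every class of every mouse has the same total.

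Protocadherins of this kind have extracellular cadherin repeats that bind mainly the same protein on a neighbouring cell, and a cytoplasmic tail that differs between members. Those of the δ1 group (*Pcdh1*, *Pcdh7*, *Pcdh9*, *Pcdh11x*) carry a motif that binds protein phosphatase 1, and several of the δ2 group (*Pcdh8*, *Pcdh10*, *Pcdh17*, *Pcdh18*, *Pcdh19*) bind the actin-regulating WAVE complex. They are known for roles in axon growth, sorting of neurons and synapse remodelling. *Pcdh8*, also named arcadlin, is induced by synaptic activity in the hippocampus, and *Pcdh15*, which lies outside both groups, is best known as a part of the tip link of hair cells.

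The promoters of a pair of long genes (*Pcdh7*, *Pcdh9*) and a pair of short ones (*Pcdh8*, *Pcdh20*) are shown because gene length separates the members in what follows. Each is the 250 bases before a transcription start site (TSS) in RefSeq on GRCm38.p6, read on the strand of the gene. Capitals mark the motif CCAAT, the motif TATAAA or the motif TGACG, or their reverse complements. The motifs were chosen after the sequences were seen and searched on both strands.
*Pcdh7*, chr5:57717831-57718080, plus strand: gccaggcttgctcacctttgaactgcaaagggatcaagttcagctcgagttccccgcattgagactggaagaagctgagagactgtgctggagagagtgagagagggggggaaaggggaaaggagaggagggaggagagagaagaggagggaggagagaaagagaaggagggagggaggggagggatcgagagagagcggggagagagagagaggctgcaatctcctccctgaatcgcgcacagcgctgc
*Pcdh8*, chr14:79771313-79771562, minus strand: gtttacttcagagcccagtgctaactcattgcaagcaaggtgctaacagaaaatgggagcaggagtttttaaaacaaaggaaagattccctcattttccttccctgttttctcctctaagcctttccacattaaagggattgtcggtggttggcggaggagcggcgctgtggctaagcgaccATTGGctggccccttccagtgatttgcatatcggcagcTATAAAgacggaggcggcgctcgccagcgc
*Pcdh9*, chr14:93890670-93890919, minus strand: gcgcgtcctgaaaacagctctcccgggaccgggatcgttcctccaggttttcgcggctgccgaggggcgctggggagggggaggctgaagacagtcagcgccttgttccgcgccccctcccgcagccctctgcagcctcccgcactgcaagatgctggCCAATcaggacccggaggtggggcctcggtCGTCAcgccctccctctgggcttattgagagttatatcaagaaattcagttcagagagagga
*Pcdh20*, chr14:88471397-88471646, minus strand: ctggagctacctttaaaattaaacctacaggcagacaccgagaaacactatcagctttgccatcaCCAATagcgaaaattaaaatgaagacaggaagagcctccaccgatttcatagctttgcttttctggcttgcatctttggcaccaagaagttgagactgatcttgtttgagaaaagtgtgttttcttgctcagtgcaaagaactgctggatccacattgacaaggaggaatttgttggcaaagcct

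The *Pcdh7* window held none of the 3 motifs and 72.8% of its bases were purines, in long runs of a and g. The *Pcdh8* window held 1 CCAAT on the opposite strand and 1 TATAAA. The *Pcdh9* window held 1 CCAAT and 1 TGACG on the other strand, and the *Pcdh20* window 1 CCAAT. Among 32851 RefSeq windows of the same length, CCAAT occurred in 33.85%, TATAAA in 12.37% and TGACG in 17.77%. CpG dinucleotides numbered 7, 11, 18 and 3 in the windows of *Pcdh7*, *Pcdh8*, *Pcdh9* and *Pcdh20*, against a median of 6 over all windows. The windows of *Pcdh10* and *Pcdh17*, not printed, held 22 and 21. Where a gene had several RefSeq windows, one with its TSS within or at the edge of the interval that the deposited tables give was preferred. Such a window was found for all 7 members with a window used here. The RefSeq spans of *Pcdh7*, *Pcdh9* and *Pcdh15* also reach upstream of the start that was used.

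In GCs, levels per kilobase of gene (CPM divided by the length from first to last annotated base) placed *Pcdh20* highest in WT mice at 12.9, followed by *Pcdh9* at 6.22, *Pcdh8* at 6.005, *Pcdh17* at 4.87 and *Pcdh1* at 1.06. *Pcdh7* (0.525), *Pcdh10* (0.377) and *Pcdh15* (0.0468) were lowest. Division by length raises short genes such as *Pcdh8* and *Pcdh20* and is not a measure of RNA molecules. In CPM alone, WT means ran *Pcdh9* (5470.5), *Pcdh17* (458), *Pcdh7* (219), *Pcdh20* (85.8), *Pcdh15* (72.7), *Pcdh1* (27.7), *Pcdh8* (27.3) and *Pcdh10* (21.2). In V321L mice *Pcdh8* led at 18.3 CPM per kilobase, before *Pcdh20* at 13.9, and *Pcdh9* was at 3.40. Of the other nonclustered protocadherins, *Pcdh19* and *Pcdh11x* were present in GCs, whereas *Pcdh12* and *Pcdh18* each had 1 UMI over all GCs.

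Across the 6 classes with at least 20 nuclei in every mouse, the members differed in where they were highest (levels are described, not tested). *Pcdh9* was highest in oligodendrocytes, with a mean of 15704 CPM in WT mice (9413 to 20531) and 11169 CPM in V321L mice (10005 to 12491). In the V321L mice this range lay above that of every other class, and in WT mice it overlapped that of GABAergic neurons (7570 to 9557 CPM). *Pcdh7* was highest in astrocytes or radial glia, at 1031 CPM in WT (504 to 1573) and 995 CPM in V321L mice (819 to 1431), with GABAergic neurons next at 960 CPM and 532 CPM. The WT ranges of astrocytes, GABAergic neurons, oligodendrocytes and non-GC excitatory neurons overlapped in that order, and GCs followed at 219 CPM (166 to 259) without overlap. WT microglia, at 200 CPM (84.5 to 271), overlapped the GCs.

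*Pcdh15* was highest in GABAergic neurons in both genotypes, at 1176 CPM (895 to 1691) and 942 CPM (643 to 1327), and in WT mice no other of the 6 classes overlapped them. In V321L mice only the non-GC excitatory neurons did, through 1 mouse (V321L M1). *Pcdh10*, which recruits the WAVE complex during axon growth, was highest in astrocytes or radial glia (125 and 184 CPM) and GABAergic neurons (96.3 and 128 CPM), whose ranges overlapped. *Pcdh8* had its highest mean in GCs. In V321L mice its GC range of 68.1 to 93.7 CPM lay above that of every other class, with GABAergic neurons next at 21.1 to 46.8 CPM, whereas in WT mice the GC range of 15.5 to 35.8 CPM overlapped those of microglia, GABAergic neurons and astrocytes. *Pcdh20* likewise had its highest mean in GCs in both genotypes and stood clear of the next class in V321L mice but not in WT mice.

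**Figure D1:**
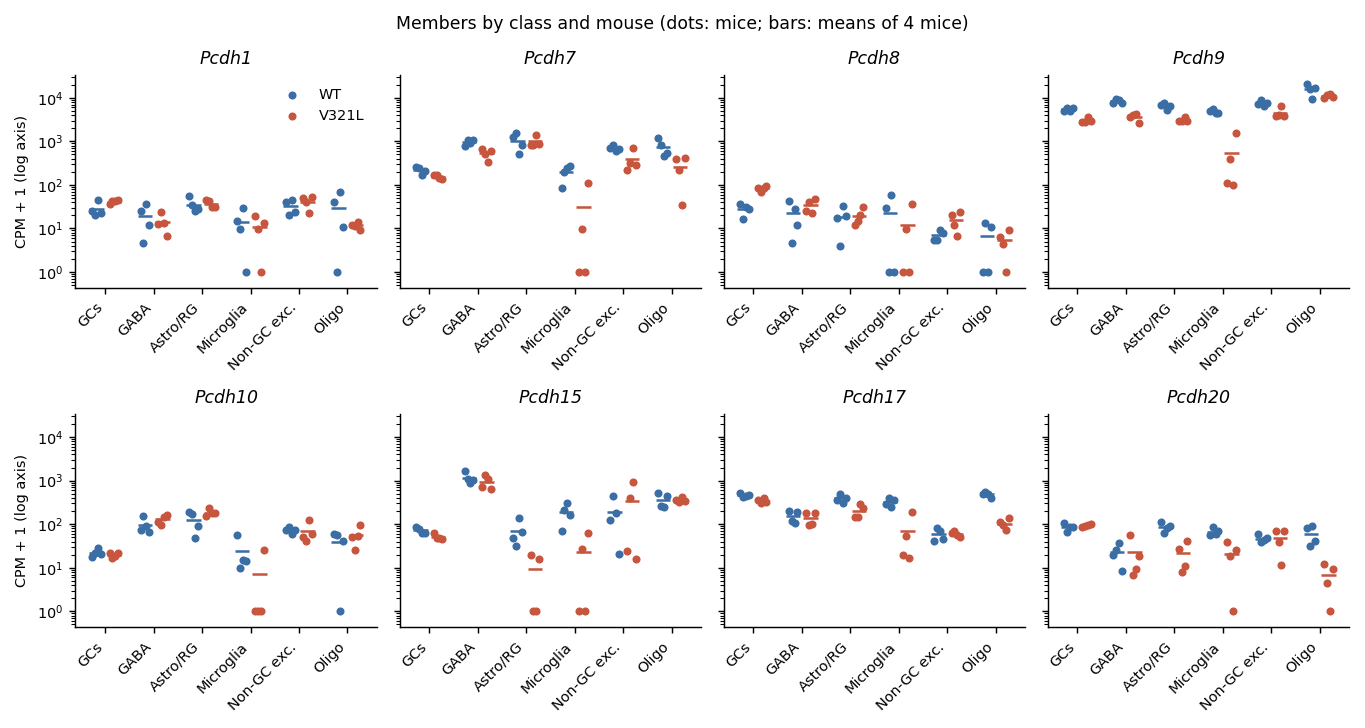
CPM + 1 of the 8 members in the 6 tested cell classes, on a log axis, with 1 point per mouse coloured by genotype and bars at the means of 4 mice. *Pcdh9* was highest in oligodendrocytes (means of 15704 and 11169 CPM), *Pcdh15* in GABAergic neurons (1176 and 942 CPM), and *Pcdh8* in GCs of V321L mice (82.9 CPM).

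*Pcdh17*, which binds the WAVE complex and is found at synapses, showed how far a class order depended on genotype. In WT mice its ranges in oligodendrocytes, GCs, astrocytes and microglia overlapped from 244 to 552 CPM. In V321L mice GCs had 310 to 392 CPM and the next class, astrocytes or radial glia, 146 to 294 CPM. The summed RNA of GC markers moved the same way in the glial classes, although not every marker did. The 7 GC markers used to name clusters (*Prox1*, *Ntng1*, *Glis3*, *Dock10*, *Stxbp6*, *Rfx3* and *Dsp*) summed to 4788 to 7037 CPM in WT microglia and 1239 to 2732 CPM in V321L microglia. In astrocytes or radial glia the sums were 4107 to 5404 and 1242 to 1886 CPM, in oligodendrocytes 5618 to 6448 and 3272 to 4357 CPM, and in GCs 7731 to 8925 and 4858 to 5548 CPM. *Ntng1*, at 615 to 759 CPM in WT GCs, was at 298 to 934 CPM in WT microglia and at 0 to 304 CPM in V321L microglia, and all 7 markers had UMIs in every class. In oligodendrocytes *Dock10* was higher in V321L mice (2421 to 3416 CPM, against 1547 to 2219 in WT). *Prox1* was level there (130 to 265 CPM in WT and 127 to 270 in V321L mice). In V321L microglia *Dock10*, at 944 to 1032 CPM, was a large part of the sum. The part of GC marker RNA in the members' levels was not tested.

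Classes with fewer nuclei were summed over the mice of a genotype and carry counting intervals only (95%, exact Poisson). Oligodendrocyte precursors had the highest *Pcdh15* of any class, at 3642 CPM in WT (interval 3360 to 3942, 126 nuclei) and 4047 CPM in V321L mice (3836 to 4266, 178 nuclei), and also the highest *Pcdh7*, at 1839 and 1342 CPM, and *Pcdh10*, at 332 and 287 CPM. Neuroblasts or immature GCs carried *Pcdh15* at 1278 and 1170 CPM, against 72.7 and 49.9 CPM in GCs. Their *Pcdh8* rested on 1 UMI in WT and 9 in V321L mice. Among excitatory neurons other than GCs, *Pcdh15* was at 30.1 CPM in CA3-like neurons of WT mice, at 259 CPM in mossy-like cells and at 1177 CPM in excitatory neurons that fell under no subtype. V321L M1 supplied 248 of the 360 V321L nuclei of that last kind, and its non-GC excitatory neurons reached 910 CPM of *Pcdh15* against 14.5 to 394 in the other V321L mice.

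To ask which members differed with the genotype, UMIs were summed per mouse and class and compared with edgeR over all genes. In GCs, 6 of the 7 members other than *Pcdh8* were lower in V321L mice and *Pcdh1* did not pass the threshold. Over all 12187 genes tested in GCs, 31.7% were lower and 38.7% were higher, and the median log2 fold change was 0.12 against -0.86 for these 7 members. With scaling by total UMIs in place of TMM (edgeR's scaling, which trims extreme genes) the median of all genes moved to 0.58, 17.0% were lower and 54.9% higher. Folds that follow are on the TMM scale unless another is named. Different clusters held the GCs of the genotypes, with clusters 0, 2 and 3 mostly of WT nuclei (3266, 1772 and 1327 of them) and cluster 1 of V321L nuclei (3118, against 17 of WT).

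*Pcdh9*, the most abundant member in GCs, had 5012, 5916, 5092 and 5862 CPM in WT F1, F2, M1 and M2 and 2797, 2725, 3559 and 2871 CPM in the same order of V321L mice. Each V321L mouse lay below each WT mouse. The log2 fold change was -1.34 (SE 0.15, adjusted p = 4.56e-06 from edgeR). *Pcdh17* had 507, 417, 452 and 456 CPM in WT and 358, 310, 392 and 327 CPM in V321L mice, again without overlap, and fell by 0.86 on the log2 scale (SE 0.11, adjusted p = 1.36e-05 from edgeR). *Pcdh15* fell by 1.02 (SE 0.16, adjusted p = 7.67e-05), from 61.0 to 87.7 CPM in WT to 45.1 to 60.8 CPM in V321L mice, and the V321L female F1 stood just below the lowest WT mouse.

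*Pcdh7* had 259, 238, 166 and 213 CPM in WT F1, F2, M1 and M2 and 169, 167, 146 and 133 CPM in V321L F1, F2, M1 and M2. The ranges met, since WT M1 lay below V321L F1 and F2. Its log2 fold change was -0.99 (SE 0.16, adjusted p = 8.21e-05 from edgeR). *Pcdh8* had 35.8, 15.5, 30.8 and 27.0 CPM in WT and 83.8, 68.1, 85.9 and 93.7 CPM in V321L mice, so that each V321L mouse held more than each WT mouse. Its log2 fold change was 1.18 (SE 0.18), and 1.63 with scaling by total UMIs. On that scale *Pcdh9*, *Pcdh15*, *Pcdh7* and *Pcdh17* were at -0.87, -0.55, -0.51 and -0.40 and still passed.

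*Pcdh1*, *Pcdh10* and *Pcdh20* depended on the scaling. *Pcdh20* had 104, 65.9, 86.2 and 86.6 CPM in WT and 84.5, 88.3, 95.2 and 102 CPM in V321L mice, and its log2 fold change was -0.34 with TMM (adjusted p = 0.024 from edgeR) but 0.11 with total UMIs (adjusted p = 0.468) and 0.28 after subtracting free RNA (adjusted p = 0.106). *Pcdh10* was at -0.60 with TMM (adjusted p = 0.00632 from edgeR), -0.13 with total UMIs (adjusted p = 0.532) and 0.64 after subtracting free RNA (adjusted p = 0.435), with 16.5 to 27.7 CPM in WT and 15.9 to 21.2 CPM in V321L mice. *Pcdh1* did not pass with TMM (0.16, SE 0.19, adjusted p = 0.441 from edgeR) but did with total UMIs (0.61, adjusted p = 0.0271) and after subtracting free RNA (1.54, adjusted p = 0.0261). It also passed without WT M1 (0.32, adjusted p = 0.048), which at 44.9 CPM lay far above the other WT mice (19.2 to 24.6 CPM). *Pcdh20* no longer passed without WT F1, V321L F1 or V321L F2 (adjusted p = 0.0747, 0.0788 and 0.0629).

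Of the related genes outside the list, *Pcdh19*, which partners N-cadherin and is linked to a female-limited epilepsy, fell by 0.97 (SE 0.12, adjusted p = 6.69e-06 from edgeR), and *Pcdh11x* fell by 1.44 (SE 0.21, adjusted p = 2.91e-05). With sex as a further term, 0 of 13041 genes passed for a sex-by-genotype interaction (0% called, 346 genes at an unadjusted p under 0.05, edgeR), and no other tool was run for this term. With 2 mice per sex and genotype this says little about the members, for each of which the adjusted p was 0.997.

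**Figure D2:**
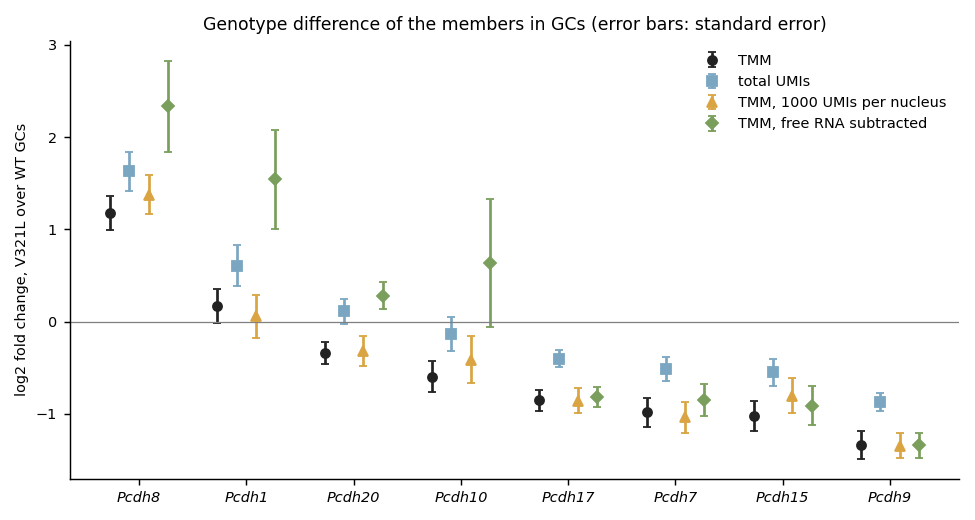
Log2 fold change V321L over WT of the 8 members in GCs, as points with SE bars, with TMM, total UMIs, 1000 UMIs per nucleus, and free RNA subtracted. *Pcdh8* lay above 0 and *Pcdh17*, *Pcdh7*, *Pcdh15* and *Pcdh9* below 0 under each that is drawn, while *Pcdh20* (-0.34 with TMM) was at 0.11 with total UMIs and *Pcdh10* (-0.60) at 0.64 once free RNA was subtracted.

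Fold changes in GCs followed the length of the gene, over all genes as among the members. Of the 12187 genes, 11528 had a span in RefSeq. Those under 10 kb had a median log2 fold change of 1.73, with 80.3% called higher, and the medians of the following bins were 0.53 (10 to 30 kb), -0.22 (30 to 100 kb), -0.71 (100 to 300 kb) and -1.09 (300 kb or more, with 96.2% called lower). *Pcdh7* (417 kb), *Pcdh9* (879 kb) and *Pcdh15* (1554 kb) belong to the longest bin, where 62.1%, 24.4% and 58.5% of genes had a lower log2 fold change than they did. *Pcdh8* spans 4.54 kb, and 33.7% of genes in its bin had a lower log2 fold change. *Pcdh20*, at 6.65 kb, stood low in the same bin, with 6.37% of genes below it. *Pcdh17* (94.0 kb) and *Pcdh10* (56.2 kb) had 14.0% and 26.9% of their bin below them. *Pcdh1* (26.1 kb) had 32.3%. The part of gene length, or of anything that moves with it, in the members' differences was not tested.

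**Figure D3:**
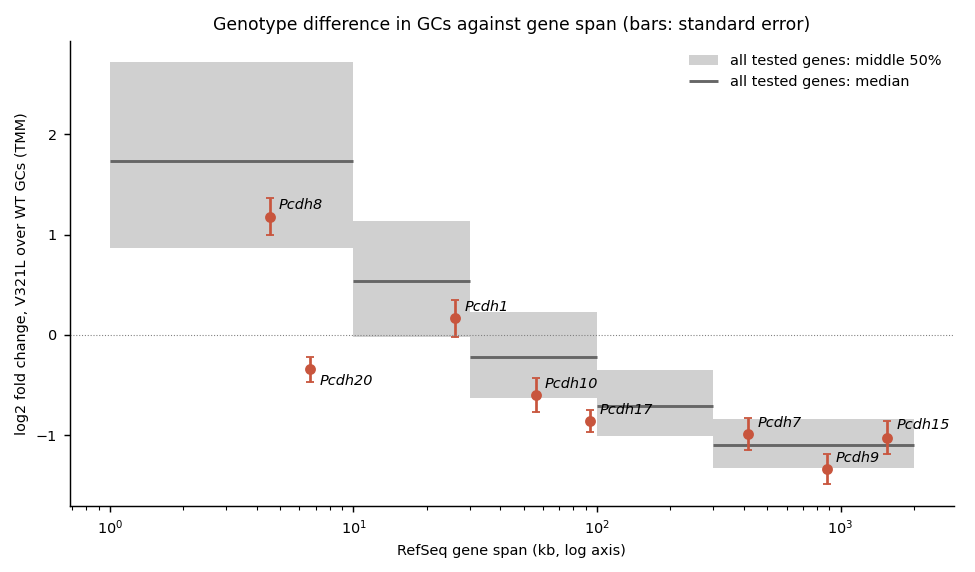
Log2 fold change V321L over WT in GCs (TMM) against gene span in kb on a log axis, with the members as points with SE bars, and the median (line) and middle 50% (grey) of the tested genes in each of 5 span bins. Medians fell from 1.73 under 10 kb to -1.09 at 300 kb or more. *Pcdh8* (1.18) and *Pcdh7* (-0.99) lay inside the grey of their bins, and *Pcdh20* (-0.34, or 0.11 with total UMIs) below it.

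RNA outside nuclei also differed between genotypes. In barcodes with at most 100 UMIs, *Pcdh9* was at 1461 to 2217 CPM in WT and 215 to 375 CPM in V321L libraries, and *Pcdh7* at 152 to 233 and 35.2 to 58.3 CPM, in both cases below or about the GC level. *Pcdh8* was at 65.7 to 90.3 CPM in WT and 75.1 to 97.7 CPM in V321L libraries. In WT mice this was above the GC level of the same mice, and in V321L mice it was close to it. From glial marker UMIs in GCs, free RNA was estimated to make up 16.8% to 24.1% of UMIs in WT GCs and 9.58% to 18.1% in V321L GCs, which would carry 14.8 to 21.8 CPM of *Pcdh8* in WT and 8.2 to 15.6 CPM in V321L mice. In WT F2 that estimate (15.1 CPM) was about the whole GC level (15.5 CPM). For *Pcdh10* the estimate was 6.57 to 19.2 CPM in WT and 2.97 to 5.93 CPM in V321L mice, against GC levels of 16.5 to 27.7 and 15.9 to 21.2 CPM. In WT F1 it exceeded the *Pcdh10* level of GCs. For *Pcdh1* it was 15.6 to 21.8 CPM in WT and 4.61 to 7.81 CPM in V321L mice, against 19.2 to 44.9 and 34.9 to 44.1 CPM in GCs. After subtraction the *Pcdh8* log2 fold change was 2.33.

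Outside GCs every member called in a class was lower in V321L mice. In GABAergic neurons 5 members had enough UMIs to test and 2 were lower (16.2% of all genes tested there were lower), *Pcdh9* by 1.28 (SE 0.18, adjusted p = 2.41e-05 from edgeR) and *Pcdh7* by 0.93 (SE 0.20, adjusted p = 0.00148). *Pcdh9* had 7718, 9557, 8828 and 7570 CPM there in WT and 3711, 4021, 4248 and 2689 CPM in V321L mice, and *Pcdh7* 788, 1065, 931 and 1059 CPM and 662, 516, 342 and 608 CPM. Neither gene's groups overlapped, but *Pcdh7* was at -0.20 once nuclei were thinned to 500 UMIs (adjusted p = 0.786). In non-GC excitatory neurons 7 members were tested and the same pair was lower (24.7% of all genes), *Pcdh9* by 1.16 (adjusted p = 0.00237 from edgeR) and *Pcdh7* by 1.30 (adjusted p = 0.00925). The makeup of this class differed between genotypes, with 747 WT and 221 V321L nuclei of CA3-like neurons, 110 and 7 of mossy-like cells and 120 and 193 of CA1-like neurons, and pooled *Pcdh7* in WT mice was at 821, 471 and 131 CPM in these. Within CA3-like neurons pooled *Pcdh7* was at 821 and 406 CPM and within CA1-like neurons at 131 and 40.1 CPM in WT and V321L mice, with no test. V321L M1, with most nuclei of the excitatory kind named above, had 6533 CPM of *Pcdh9* and 700 CPM of *Pcdh7*, against 3836 to 4046 and 220 to 324 CPM in the other V321L mice. At 500 UMIs per nucleus neither passed (adjusted p = 0.0723 and 0.288).

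In astrocytes or radial glia 3 of 5 tested members were lower (23.7% of all genes), with *Pcdh20* by 2.00 (SE 0.42, adjusted p = 0.00138 from edgeR), *Pcdh9* by 1.14 (adjusted p = 0.00127) and *Pcdh17* by 1.06 (adjusted p = 0.00443). *Pcdh7*, whose mean was highest in this class among the 6 tested classes, did not pass (-0.13, SE 0.34, adjusted p = 0.774, and 0.03 with total UMIs). The *Pcdh17* call was lost at 500 UMIs per nucleus and with nuclei gated singly on markers (adjusted p = 0.237 and 0.0724). In oligodendrocytes 2 of 4 were lower (22.3% of all genes), *Pcdh17* by 2.17 (SE 0.27, adjusted p = 1.15e-05 from edgeR) and *Pcdh7* by 1.45 (SE 0.48, adjusted p = 0.0197, but 0.0528 without WT F2 and 0.0536 without V321L F2). *Pcdh17* had 500, 552, 486 and 393 CPM there in WT and 110, 93.5, 72.4 and 135 CPM in V321L mice, far apart. In microglia the 2 members tested, *Pcdh9* and *Pcdh17*, were both lower (25.3% of all genes), by 2.91 (SE 0.84, adjusted p = 0.0152 from edgeR) and 1.93 (SE 0.56, adjusted p = 0.015, but 0.0519 without V321L F2), and *Pcdh9* went from 4368 to 5598 CPM in WT to 96.5 to 1578 CPM in V321L mice. With nuclei gated singly, *Pcdh9* in microglia was at -0.04 (adjusted p = 0.986). The summed GC marker RNA given above was also lower in these glial classes of V321L mice, and its part in these calls was not tested. *Pcdh8* had too few UMIs to be tested in any class but GCs. Its WT and V321L means were 21.1 and 32.9 CPM in GABAergic neurons and 6.10 and 14.6 CPM in non-GC excitatory neurons, with overlapping ranges. Pooled over CA3-like neurons it was at 5.50 CPM (interval 2.93 to 9.41) and 23.5 CPM (15.4 to 34.5). Means were 17.5 and 18.7 CPM in astrocytes or radial glia, and lower in V321L mice in microglia (21.4 and 11.3 CPM) and oligodendrocytes (5.56 and 4.36 CPM).

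Whether a genotype effect differed from that in GCs was tested within mice. No member passed for GABAergic neurons (0.660% of genes called) or non-GC excitatory neurons (0.228%). The SEs of the 8 members' differences ran from 0.17 to 0.65 and from 0.14 to 1.19 on the log2 scale, so that a difference of a size seen in other classes could go undetected. The *Pcdh8* differences from GCs were -0.68 (SE 0.54) and -0.36 (SE 0.47). For astrocytes or radial glia 2 members passed (11.0% of genes), *Pcdh15* (-2.17, SE 0.62) and *Pcdh20* (-2.07, SE 0.39, adjusted p = 0.000241 from edgeR), both lower in the glia relative to GCs. For microglia 4 passed (6.67% of genes), with *Pcdh9* at -2.86, *Pcdh15* at -2.21, *Pcdh7* at -2.03 and *Pcdh17* at -1.66. For oligodendrocytes 3 passed (10.3% of genes), with *Pcdh20* at -2.93 and *Pcdh17* at -1.46, whereas *Pcdh15* was at 0.92 (SE 0.27, adjusted p = 0.0103 from edgeR). *Pcdh15* was not called in oligodendrocytes themselves (0.05, SE 0.26, adjusted p = 0.884 from edgeR). It had 243 to 520 CPM in WT and 315 to 415 CPM in V321L oligodendrocytes. Some members passed here although too sparse to be tested in the glial class alone. They entered these fits through their GC counts, so their p-values are not given and their calls carry little weight. In microglia these were *Pcdh7* (66 UMIs in WT and 10 in V321L mice) and *Pcdh15* (63 and 8). The others were *Pcdh15* in astrocytes or radial glia (61 and 8 UMIs) and *Pcdh20* in oligodendrocytes (17 and 4).

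*Pcdh7* was lower and *Pcdh8* higher in V321L GCs, and their levels lay closer together there. The log2 ratio of *Pcdh7* to *Pcdh8* CPM was 2.85, 3.94, 2.43 and 2.98 in WT F1, F2, M1 and M2 and 1.01, 1.30, 0.77 and 0.51 in the V321L mice. Means were 3.05 ± 0.64 and 0.90 ± 0.34 (SD, n = 4 each), and the lowest WT mouse lay above the highest V321L mouse. At full depth a *Pcdh7* UMI was found in 21.4% ± 5.71 of WT and 32.8% ± 4.38 of V321L GCs, but at 1000 UMIs per nucleus in 15.7% ± 2.55 and 12.9% ± 1.83 (SD, n = 4 each, exact permutation test, two-sided p = 0.143), against 19.97% and 0.403% of microglia at the same depth (17 or more nuclei per mouse), so that the WT share lay below that of WT microglia. *Pcdh8* was found in 4.88% ± 2.29 and 24.4% ± 2.19 of GCs at full depth, and at 1000 UMIs in 2.35% ± 0.833 of WT and 8.27% ± 1.25 of V321L GCs (SD, n = 4 each), against 1.04% and 0.403% of microglia. *Pcdh9* was near saturation at full depth (97.9% in both). At 1000 UMIs it was in 97.6% ± 0.954 of WT and 89.9% ± 2.65 of V321L GCs (exact permutation test, two-sided p = 0.0286, the smallest that 4 against 4 mice allow). In WT and V321L microglia it was in 90.4% and 23.5%, with no test. At 1000 UMIs both *Pcdh7* and *Pcdh8* were found in 31 WT and 47 V321L GCs. *Pcdh8* was more frequent among GCs with *Pcdh7* than among those without in 4 of 4 WT mice (4.16% and 2.01% on average) and in 2 of 4 V321L mice (9.27% and 8.13%).

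The study uses *Penk*, which encodes an opioid peptide precursor, and *Sorcs3*, a sorting receptor, among its markers of semilunar granule cells (SGCs). It identifies SGCs by both together with *Nptx2*, and in WT mice found them in the top layers of the granule cell layer. Each split here rests on a single marker gene, so the positive GCs are not SGCs by that definition. GCs with a *Sorcs3* UMI (77 to 238 per mouse) were set against the other GCs of the same mouse. *Pcdh7* was higher in *Sorcs3*+ GCs of 8 of 8 mice, at 489 ± 111 CPM against 181 ± 22.3 in WT and 272 ± 93.7 against 136 ± 15.1 in V321L mice (SD, n = 4 each), with a log2 fold change of 1.24 (SE 0.06, adjusted p = 5.71e-86 from edgeR with mice as blocks). The size of the difference varied between mice, from 622 against 186 CPM in WT F2 to 148 against 131 CPM in V321L M2. The SE and p-value of the fit do not describe this spread. *Pcdh8* was also higher in 8 of 8 mice, at 59.2 ± 31.3 against 24.0 ± 8.40 CPM in WT and 144 ± 28.8 against 73.8 ± 9.22 CPM in V321L mice, a log2 fold change of 0.98 (SE 0.11). Of the 7 members other than *Pcdh8*, 2 were higher (6.09% of all genes tested) and 2 lower (6.65%). The higher one beside *Pcdh7* was *Pcdh15* (0.46, adjusted p = 0.00035 from edgeR), and the lower ones were *Pcdh10* (-0.998, adjusted p = 0.000399) and *Pcdh9* (-0.18, adjusted p = 9.28e-06, lower in 8 of 8 mice). *Sorcs3*+ GCs were deeper in 8 of 8 mice, and with every nucleus thinned to 1000 UMIs before the split the folds were 1.10 for *Pcdh7* and 1.27 for *Pcdh8*, whereas *Pcdh15* (adjusted p = 0.169) and *Pcdh10* (-0.03, adjusted p = 0.987) no longer passed. The median of all genes tested was -0.19 there and -0.03 at full depth. In the longest span bin, which holds *Pcdh7*, *Pcdh9* and *Pcdh15*, the median log2 fold change of this split was -0.01. There 24.6% of genes were called higher and 28.5% lower.

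Split by *Penk* (12 to 95 positive GCs per mouse, 12 to 26 in WT), *Pcdh7* was higher in positive GCs of 8 of 8 mice, with a log2 fold change of 1.01 (SE 0.13, adjusted p = 1.03e-11 from edgeR), and *Pcdh8* in 8 of 8 mice, with 0.73 (SE 0.16). In WT mice the *Pcdh8* levels of *Penk*+ GCs rested on a few UMIs per mouse (36.6 ± 8.81 against 27.2 ± 8.63 CPM, SD, n = 4). In WT F1 they were 36.7 against 35.8 CPM. Of the 7 members other than *Pcdh8*, 1 was called higher (2.32% of all genes) and 2 lower (3.62%). In the longest span bin, which holds *Pcdh7* and *Pcdh9*, 9.03% of genes were called higher and 23.8% lower. The lower members were *Pcdh9* (-0.46, adjusted p = 0.00317 from edgeR) and *Pcdh10* (-2.44). *Pcdh10* had 5 UMIs in all *Penk*+ GCs and entered the fit through its counts in *Penk*- GCs, so its p-value is not given. The *Penk* split did not keep these values after thinning, which left few UMIs of either gene in WT *Penk*+ GCs (6 to 10 nuclei per mouse). Before thinning, *Penk*+ GCs had lower median UMIs than the other GCs in V321L F2 (4480 against 4664.5) and M1 (4398.5 against 4448), and higher in the remaining mice. The part of depth in the change was not tested. Thinned to 1000 UMIs, which left 6 to 30 positive GCs per mouse, *Pcdh7* was at -0.03 (adjusted p = 0.966) and *Pcdh8* at 0.05, while the median of all genes tested was -0.65, against -0.08 at full depth. Both genes lay above that median. At full depth in the WT mice alone *Pcdh8* was at -0.0017 on the TMM scale, although its CPM was higher in the positive GCs of each WT mouse.

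**Figure D4:**
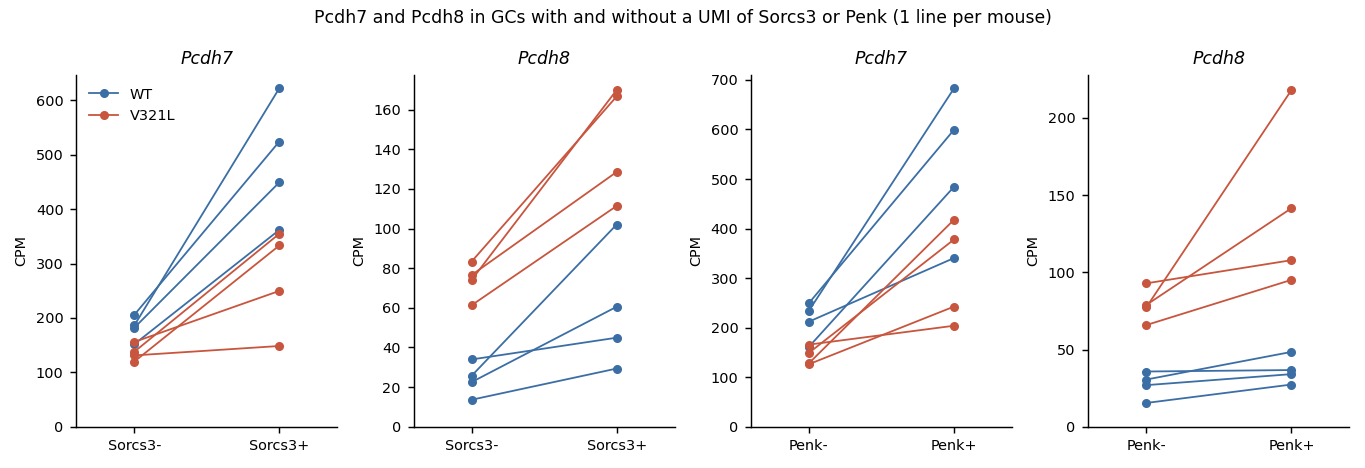
CPM of *Pcdh7* and *Pcdh8* in GCs without and with a *Sorcs3* or *Penk* UMI, on linear axes from 0, with 1 line per mouse coloured by genotype. Both genes were higher in the positive GCs of 8 of 8 mice in each split at full depth, *Pcdh7* from 181 to 489 CPM and *Pcdh8* from 24.0 to 59.2 CPM on average in WT mice split by *Sorcs3*. In WT mice split by *Penk*, *Pcdh8* in the positive GCs rested on a few UMIs per mouse.

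GC clusters, formed with the protocadherins left out, are described without a test. Cluster 10, of 185 WT and 174 V321L nuclei, had *Penk* and *Sorcs3* among its leading genes. It had the highest pooled *Pcdh7* in both genotypes (731 and 344 CPM) and the highest *Pcdh8* (65.4 and 203 CPM). *Pcdh8* was chosen partly on its enrichment in a small *Penk*-rich cluster, so its level here is not separate support. Cluster 2, mostly WT, was next for *Pcdh7* at 470 and 204 CPM, and cluster 0 lowest at 109 and 82.6 CPM. Pooled over mice, *Pcdh7* was lower and *Pcdh8* higher in V321L than in WT nuclei of clusters 0, 2, 3 and 10, but single mice overlapped. In cluster 10 each V321L mouse had less *Pcdh7* (236 to 406 CPM) than each WT mouse (578 to 980 CPM), while *Pcdh8* overlapped (132 to 296 and 38.9 to 162 CPM). In cluster 3 V321L M1 had more *Pcdh7* (259.9 CPM) than each WT mouse (123 to 257 CPM), and V321L F1 had less *Pcdh8* (33.8 CPM) than WT F1 and M2 (41.2 and 39.3 CPM). Clusters 0 and 2 held at least 20 nuclei of only 2 V321L mice, and in cluster 0 V321L F1 (96.9 CPM) lay inside the WT range of *Pcdh7* (77.0 to 139 CPM). *Pcdh10* was lower in clusters 2 and 10 (7.49 and 9.81 CPM in WT, 9.31 and 4.67 CPM in V321L) than in cluster 0 (26.1 and 22.9 CPM).

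**Figure D5:**
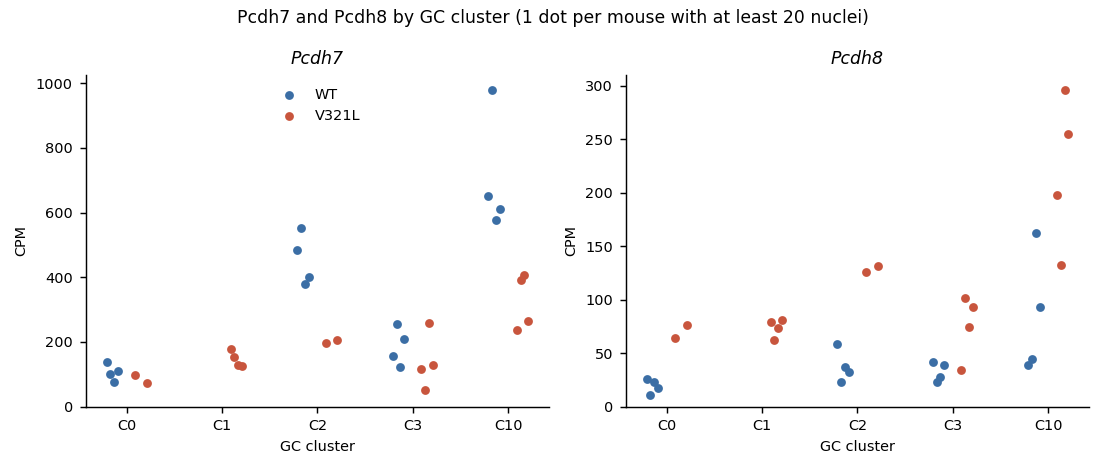
CPM of *Pcdh7* and *Pcdh8* in 5 GC clusters, with 1 point for each mouse with at least 20 nuclei in the cluster, coloured by genotype. Cluster 10 held the highest pooled levels of *Pcdh7* (731 CPM in WT, 344 CPM in V321L) and *Pcdh8* (65.4 and 203 CPM). It is *Penk*-rich, and *Pcdh8* was chosen partly on its enrichment in such a cluster.

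No tested region within 1 kb of a member's annotated TSS interval differed between genotypes in GCs. Accessible regions were called in each library separately, and 25535 regions shared by all 8 libraries were tested, of which 5 differed between genotypes (0.0196%, with 2221 at an unadjusted p under 0.05, edgeR). Leaving out 1 mouse at a time gave 2 (without V321L M2) to 25 (without V321L M1). A region within 1 kb of the TSS interval was called in all 8 libraries for *Pcdh1*, *Pcdh8*, *Pcdh9*, *Pcdh10* and *Pcdh17*. That of *Pcdh1* lay beside the interval and not over it. The regions overlapping the *Pcdh1* interval were called in 1 and 4 libraries and were not tested. At *Pcdh8* (mm10 per the processing notes, chr14:79770832-79771750, which holds the whole printed promoter) the CPM in GCs were 88.9, 79.3, 87.2 and 95.2 in WT and 73.5, 77.1, 79.3 and 82.8 in V321L mice, with overlapping ranges. The log2 fold change was -0.19 (SE 0.10, adjusted p = 0.617 from edgeR). At *Pcdh9* it was -0.01, at *Pcdh17* 0.00, at *Pcdh1* 0.06 and at *Pcdh10* 0.14 (adjusted p of 0.773 to 0.997 from edgeR). No region within 1 kb of the *Pcdh7* TSS interval was called in more than 1 library. A region over the first base of its RefSeq span, outside that margin, was called in 5. Regions within 1 kb of the TSS intervals of *Pcdh15* and *Pcdh20* were called in at most 7 libraries, so these 3 members were not tested at the TSS. Some regions elsewhere in *Pcdh7*, *Pcdh9* and *Pcdh15* were called in all 8 libraries and are not described here.

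Other genes of the family and of the pathways below it were counted in the GC fit. Of 21 classical and large cadherins 17 were tested, 12 were lower and 1 higher (31.7% and 38.7% of all genes), and their median log2 fold change was -1.13. That of all genes was 0.12, and that of the longest span bin, where 96.2% were called lower, was -1.09. *Cdh2* (N-cadherin, a partner of *Pcdh8* and *Pcdh19*, spanning 220 kb) fell by 1.48 (SE 0.14, adjusted p = 9.97e-07 from edgeR). *Cdh4* (457 kb) fell by 1.55, at only 3.32 CPM in WT and 1.56 CPM in V321L GCs. *Cdh13* (1185 kb) fell by 0.86, and *Celsr3* (26.9 kb) rose by 0.73 (SE 0.19, adjusted p = 0.00377 from edgeR). Of 12 intracellular partners 4 were higher and 5 lower, shares near those of all genes, with a median of -0.21. *Ppp1ca*, the phosphatase subunit bound by the δ1 tails and a gene of 3.25 kb, rose by 3.07 (SE 0.40, adjusted p = 1.28e-05 from edgeR) and *Brk1* of the WAVE complex by 1.52, while *Abi1* fell by 1.20 and *Wasf1* by 0.98, both also WAVE subunits.

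Over the 48 profiles of 6 classes in 8 mice, which share libraries and depths, the genes with levels most like *Pcdh7* (Pearson r of log2(CPM + 1), among 10073 genes) were *Alcam* (0.934), *Rab30* (0.895), *Slc35f1* (0.894), *Thrb* (0.888) and *Mdga2* (0.881). Those most like *Pcdh8* were *Snapc1* (0.736), *6530401F13Rik* (0.735), *Plec* (0.702), *Ndrg4* (0.698) and *Cntnap1* (0.696). The r between *Pcdh7* and *Pcdh8* was 0.260, while *Pcdh7* had 0.798 with *Pcdh9* and 0.787 with *Pcdh10*.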

How the data were processed

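Per the labels and the study's methods, the authors ran Cell Ranger ARC and deposited unfiltered matrices of RNA and ATAC counts per barcode on mm10. Peaks were called per library, and the ATAC-titled samples were not used here beyond these matrices. The 8 members, the lists and the class markers were chosen with earlier results of these data known. Barcodes passing the study's limits and at least 500 ATAC counts were kept, and doublets were removed at 2 SD. Nuclei were clustered without protocadherins (3000 variable genes, 75 components, 20 neighbours, leidenalg 0.10.2, resolution 1). Classes were rebuilt from markers, so differences from the study may come from them. Counts were summed per mouse and tested with edgeR 4.0.16 (quasi-likelihood, TMM, filterByExpr, Benjamini-Hochberg, adjusted p under 0.05). The code was tested on simulated data in which 200 genes or regions changed by 1 on the log2 scale. It recovered 80.0% of them for genotype in GCs, 91.5% for the *Sorcs3* split and 63.5% for accessibility in GCs. For the difference between GABAergic neurons and GCs it recovered only 3.0%. Free RNA came from barcodes with at most 100 UMIs. Alternatives were total UMIs, DESeq2 1.42.0, no filter, sex, a replicate block, doublets, a 1% mitochondrial limit, thinning, single-nucleus gating, free RNA subtraction and leaving out mice. Named genes were the members, their 4 relatives, the 2 highest and 2 lowest called genes of each list, and the 5 genes most like *Pcdh7* and *Pcdh8*. Mice are separate animals. Intervals on counts cover counting error only.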

Additional observations from a re-analysis of the deposited data

Results flagged for a closer look

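In 7 of 96 groups of 4 mice 1 mouse lay far from the other 3, and chance gives about 1 in 20. In GCs this was V321L F1, with 60.8 CPM of *Pcdh15* against 45.1 to 47.6 in the other V321L mice. In astrocytes or radial glia it was V321L M1, with 1431 CPM of *Pcdh7* (others 819 to 887) and 3608 CPM of *Pcdh9* (others 2870 to 2962). V321L M1 also had 6533 CPM of *Pcdh9* in non-GC excitatory neurons (others 3836 to 4046). In microglia V321L M2 had 109 CPM of *Pcdh7* (others 0 to 8.74) and 24.3 CPM of *Pcdh10* (others 0), and WT F1 had 56.3 CPM of *Pcdh10* (others 8.68 to 14.4).

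The genotype effect was called different from that in GCs for 9 pairs of a member and a class (edgeR, within mice, log2 scale). In astrocytes or radial glia the differences were -2.17 for *Pcdh15* (SE 0.62) and -2.07 for *Pcdh20* (SE 0.39, adjusted p = 0.000241). In microglia they were -2.03 for *Pcdh7*, -2.21 for *Pcdh15*, -1.66 for *Pcdh17* (adjusted p = 0.0196) and -2.86 for *Pcdh9* (adjusted p = 0.00366). In oligodendrocytes they were 0.92 for *Pcdh15* (adjusted p = 0.0103), -1.46 for *Pcdh17* (adjusted p = 0.00025) and -2.93 for *Pcdh20*. Summed RNA of GC markers was lower in these glial classes of V321L mice, and its part in the differences was not tested. Too sparse to be tested in the class alone were *Pcdh7* and *Pcdh15* in microglia, *Pcdh15* in astrocytes or radial glia and *Pcdh20* in oligodendrocytes. These entered the fits through their GC counts, and their calls rest on few UMIs in the glial class, so no p-value is given for them.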

How the results depend on the processing

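In GCs *Pcdh7*, *Pcdh9*, *Pcdh15* and *Pcdh17* stayed lower and past the threshold, and *Pcdh8* stayed higher, under every alternative run. *Pcdh10* was at -0.13 with total UMIs, -0.42 at 1000 UMIs and 0.64 with free RNA subtracted. *Pcdh20* was at 0.11, -0.32 and 0.28 under the same settings, -0.23 with no filter, and -0.44 to -0.27 with 1 mouse left out. *Pcdh1* was at 0.61 with total UMIs, 1.54 with free RNA subtracted and 0.037 to 0.32 with 1 mouse left out. In the *Penk* split *Pcdh7* was at -0.028 at 1000 UMIs, and *Pcdh8* at 0.053 at 1000 UMIs, 0.43 with no filter and -0.0017 in WT mice alone. The V321L less WT share of GCs at 1000 UMIs was -2.82 percentage points for *Pcdh7*, -0.766 for *Pcdh15* and -4.41 for *Pcdh17*, against a higher share at full depth. *Pcdh7* in astrocytes or radial glia was at 0.031 with total UMIs and -0.55 to 0.12 with 1 mouse left out. At 500 UMIs, where fewer genes were tested, genes called numbered 41 in GABAergic neurons (1352 at full depth), 596 in astrocytes or radial glia (2316), 253 in microglia (927), 419 in non-GC excitatory neurons (4247) and 432 in oligodendrocytes (1481). They numbered 1333 in astrocytes or radial glia, 121 in microglia and 885 in oligodendrocytes with single-nucleus gating. The *Sorcs3* split called 1436 genes, 496 at 1000 UMIs and 710 in WT mice alone, and the *Penk* split 663, 1014 at 1000 UMIs, 2395 with no filter and 220 in WT mice alone. Regions called were 5, and 2 to 25 with 1 mouse left out. At the TSS of *Pcdh9* the accessibility difference was 0.0091 with total counts. With 1 mouse left out it ranged from -0.057 to 0.077 at *Pcdh9*, from -0.054 to 0.086 at *Pcdh17* and from -0.078 to 0.16 beside the *Pcdh1* TSS. Except where a setting itself removes genes or mice, the cause was not tested.

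Same-numbered WT and V321L mice showed little common deviation (correlations of 0.068, 0.260, -0.121 and -0.0019 for F1, F2, M1 and M2), though WT F2 was most like V321L F2. The main fits therefore did not pair them by label, but this check cannot exclude a pairing. With the replicate block 8826 genes were called in GCs, against 8581, *Pcdh8* was at 1.21, and the block changed no member's call in GCs. Depth limits *Pcdh8* outside GCs, where it was not tested.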
